A study of Homo sapiens with 28 samples.

Results

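The comparison described here sets 1 TWIST1 knockout clone of the human colorectal cancer cell line MDST8, clone 1.1, against unedited MDST8 cells (WT). It was chosen by library name, as the 3 RNA-seq libraries of knockout TG1, colony 1, and the 3 WT libraries, so 6 of the 18 MDST8 RNA-seq libraries and of the 28 samples of the series. Clone 1.1 has the genotype TWIST1 knockout and the WT cells are wild type. Cas9 and guide RNAs were electroporated into MDST8 cells, and single cells were grown into clones, of which 2.2, 3.2, 3.5 and 3.6 are used here for contrast. All cells were grown in DMEM with fetal bovine serum. Because clone 1.1 descends from 1 cell, the effect of losing TWIST1 and differences between that founder cell and the bulk of WT cells cannot be told apart. The labels do not say that the 3 libraries of a group are separate cultures. The p-values of the fit therefore measure only the spread between libraries within groups, estimated over all 18 MDST8 libraries together.

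TWIST1 is a basic helix-loop-helix transcription factor that binds E-box sequences as a dimer and patterns the mesoderm and neural crest in the embryo. In carcinomas it is one of the factors that drive EMT, in which cells lose epithelial junctions and gain motility and a matrix-producing, mesenchymal character. MDST8 belongs to the mesenchymal CMS4 subtype of colorectal cancer, and the knockout was made to ask which genes depend on TWIST1 in such cells.

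Total counts were 18971712 to 21563128 in the clone 1.1 libraries and 18502364 to 19382787 in WT. Mitochondrially encoded genes took 3.24 to 3.68% of counts in clone 1.1 and 2.40 to 3.05% in WT, and ribosomal protein genes took 2.41 to 2.48 and 2.88 to 3.13%. The part of these shares in the results below was not tested. Levels are CPM normalized between libraries by TMM, and changes are log2 fold changes of clone 1.1 over WT. A call, up or down, needed a log2 fold change beyond 0.58 in either direction and a Benjamini-Hochberg adjusted p below 0.05 in the quasi-likelihood test of edgeR, adjusted over all genes tested. Of 13706 genes tested, 1644 were called up in clone 1.1 (12%) and 1026 down (7.49%). The log2 fold change exceeded 1 in 722 of the former, and fell below -1 in 298 of the latter. The median over all tested genes was -0.01.

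The label of origin, colon, was checked against marker genes. Neither WT nor clone 1.1 held the defining intestinal markers: of 23 intestinal genes, 13 had no count in any of the 6 libraries, among them CDX1, the mucin gene MUC2 and the stem cell gene LGR5. CDX2, VIL1 and CDH17 were at no more than 0.266 CPM in any library, and of the 3 that reached the level for testing, GATA4 and GATA6 among them, 0 were called. The epithelial genes CDH1 and EPCAM were near 0 as well, at no more than 0.0469 and 0.105 CPM in any library. Other epithelial genes were expressed: over the 27 genes of the epithelial list the summed level was 146.5 CPM in WT and 199.5 CPM in clone 1.1, and 8 were tested. Vimentin mRNA (VIM), the classical mesenchymal intermediate filament, stood at 3492 ± 102 CPM in WT and 3352 ± 20.5 CPM in clone 1.1 (SD, n = 3 each). MDST8 thus expressed few of the intestinal markers by which colon epithelium is recognised, before and after the knockout. Endothelial and immune markers were too low for testing in both groups, with summed levels of 0.864 to 2.45 CPM over 9 genes and 0.712 to 1.17 CPM over 12 genes.

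TWIST1 mRNA (ENSG00000122691.13, minus strand of chromosome 7, 19020991 to 19117636 of hg38) was still present in clone 1.1. It measured 45.1, 52.5 and 40.5 CPM in the WT libraries, and 38.8, 34.7 and 38.1 CPM in the clone 1.1 libraries. The groups did not overlap, and the log2 fold change was -0.31 (SE 0.07, adjusted p = 3.06e-04), too small for a call. In the exact two-sided permutation test on log2 CPM the p was 0.10, the smallest that 3 libraries against 3 allow. Counts of mRNA do not report on the protein. TWIST1 lies on the short arm of chromosome 7. In the 10 Mb windows from 0 to 50 Mb there with at least 20 tested genes, medians against WT were -0.13 to -0.19 in clone 1.1. They were -0.26 to -0.44 in clone 2.2 and -0.03 to 0.15 in clones 3.2, 3.5 and 3.6. The window that holds TWIST1 had too few tested genes. The part of these values in the TWIST1 level was not tested. SPON2, a secreted matrix protein that the study followed up as a TWIST1 target, had 117, 173 and 143 counts in WT and 11, 17 and 6 in clone 1.1. Its log2 fold change was -3.68 (SE 0.26, adjusted p = 1.37e-14; exact permutation p = 0.10).

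Most other EMT transcription factors did not pass the thresholds. Of 10 tested, TWIST1 included, 0 were called up and 2 down (20%, against 7.49% of all genes). The median log2 fold change was -0.04. FOXC2, a forkhead factor of mesenchyme, was at 9.12, 9.85 and 8.14 CPM in WT and at 3.83, 3.05 and 3.26 CPM in clone 1.1, a log2 fold change of -1.42. PRRX1, a homeobox factor of mesenchyme, fell by 0.85 on the log2 scale. SNAI2, ZEB1 and ZEB2, 3 other inducers of EMT, had log2 fold changes of -0.25, -0.11 and 0.42 and were not called. Of 17 mesenchymal genes tested, 4 were called up (23.5%, against 12% of all genes) and 3 down (17.6%, against 7.49%). The 4 that rose were THY1, TPM2, PDGFRB and TGFBI, and the log2 fold change of THY1, a surface glycoprotein of stromal cells, was 1.26. Those that fell were MYL9 and TAGLN, both of the contractile apparatus, and the receptor kinase AXL. Neither N-cadherin (CDH2, 0.21) nor fibronectin (FN1, 0.43) was called.

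The largest single changes separated the groups without overlap, as the rule for naming these genes required. Among protein-coding genes with at least 5 CPM in either group, the 12 largest rises ran from 3.21 to 5.13 on the log2 scale. LGALS9, which encodes the secreted lectin galectin-9, was at 0.533, 0.508 and 0.407 CPM in WT and at 16.9, 18.1 and 16.4 CPM in clone 1.1, a log2 fold change of 5.13 (SE 0.18, adjusted p = 7.75e-23). JUP, which encodes plakoglobin, the catenin of desmosomes and adherens junctions, went from 1.23, 1.12 and 0.915 CPM to 21.5, 22.4 and 23.2 CPM (log2 fold change 4.36). SLC14A1, a urea transporter, was the most abundant transcript of the group in clone 1.1, at 240 ± 5.09 CPM against 14.6 ± 3.04 in WT (SD, n = 3). ITGA11, a collagen-binding integrin subunit, rose from 2.45 ± 0.327 to 37.6 ± 3.66 CPM. The others were COL22A1, a collagen of tissue junctions (4.06), the neural adhesion protein LSAMP (3.93), the bZIP transcription factor MAF (3.91), the calcineurin regulator RCAN2 (3.85), the integrin ligand EDIL3 (3.44), the membrane mucins MUC3A (3.30) and MUC15 (3.22), and the formin DAAM2 (3.21). In each of the 12 genes every clone 1.1 library exceeded every WT library.

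Among the 12 largest falls under the same minimum of 5 CPM, TMPRSS15 stood apart. This gene (chromosome 21, 18269116 to 18485879 of hg38) encodes enteropeptidase, the protease that activates trypsinogen in the gut. It had 592, 686 and 659 counts in the WT libraries, and 0, 0 and 1 in those of clone 1.1. The single count amounts to 0.0508% of the WT level, with a 95% exact counting interval of 0.00129 to 0.283% that covers counting error only. FBLN5, an elastic fibre glycoprotein, fell from 9.01, 8.94 and 8.90 CPM to 0.213, 0.141 and 0.316 CPM, a log2 fold change of -5.31. TNFAIP2, a gene named for its induction by TNF, had a log2 fold change of -5.00, and MYL9, the regulatory light chain of myosin, one of -4.19 (24.5, 21.9 and 22.5 CPM against 1.33, 1.08 and 1.37). The remaining falls were in SPON2, the hair keratin-associated genes KRTAP2-3 (-3.55) and KRTAP2-4 (-3.51), the aldehyde oxidase AOX1 (-3.29), PDZD4 (-3.27), the vasoconstrictor peptide endothelin-1 (EDN1, -3.26), the protease inhibitor SERPINB2 (-3.11) and the membrane protein LRRC15 (-3.0). KRTAP2-3 and KRTAP2-4 are near-identical neighbours on chromosome 17 whose reads the counting could have split, so they count as uncertain.

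**Figure D1:**
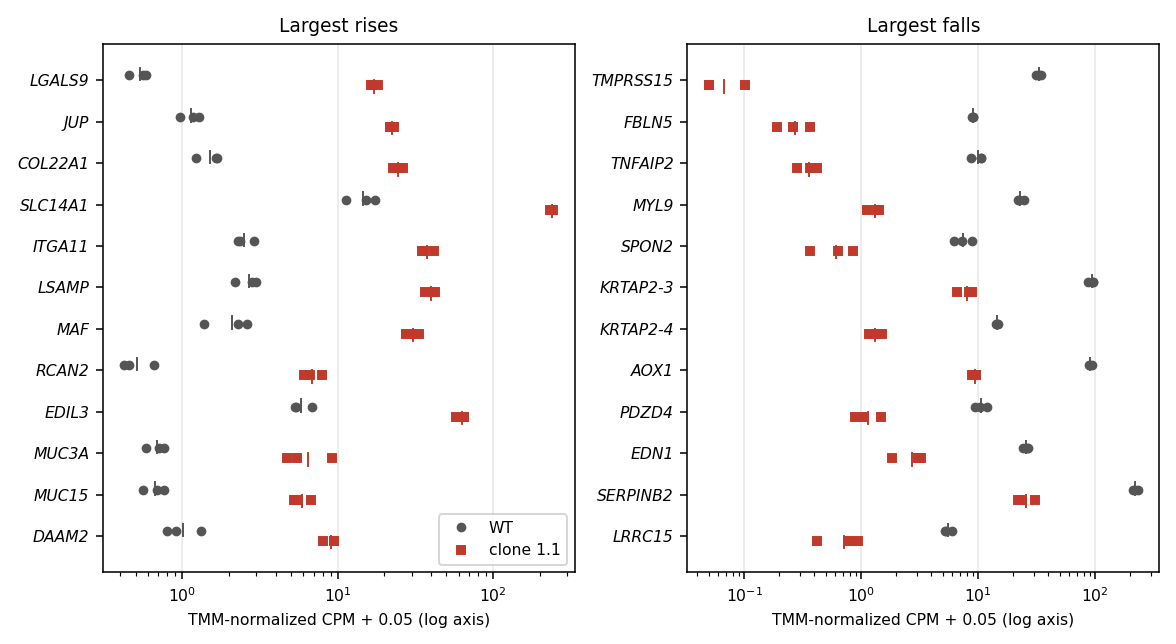
Levels of the 12 protein-coding genes with the largest rise and the 12 with the largest fall, of those with at least 5 CPM in either group, in each of the 3 WT libraries (grey circles) and 3 clone 1.1 libraries (red squares); ticks are group means, and the log axis shows CPM + 0.05. No WT library overlaps a clone 1.1 library in any gene, and TMPRSS15 had 592 to 686 counts in WT against 0, 0 and 1 in clone 1.1.

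Measured by the number of transcripts gained or lost rather than by fold, other genes led. The 6 largest rises in CPM were in FLNA, an actin cross-linker (3868 ± 112 to 6491 ± 357 CPM, SD, n = 3), PSAP, the precursor of lysosomal saposins (1401 ± 68.4 to 3306 ± 116), DCBLD2, DPYSL3, TGFBI and COL6A2. DPYSL3, a cytoskeletal protein of growing neurites, had the largest fold among them (log2 fold change 1.51). Among the 6 largest falls were FTL, the ferritin light chain (2130.3 ± 29.9 to 967 ± 22.8 CPM), the chaperone HSPA8, THBS1, the nuclear receptor NR2F2 and the tubulin gene TUBA1B. HSPA8 and TUBA1B lay close to the threshold, at log2 fold changes of -0.61 and -0.62. HSPA8 came to -0.58 and was no longer called without WT replicate C, nor was TUBA1B without WT replicate B (-0.57).

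Among long noncoding RNAs, 237 were called up and 105 down of 1280 tested. Over all genes, 1644 of 13706 were called up (12%) and 1026 down (7.49%). LINC01854 rose from 2.99 ± 0.686 to 50.6 ± 4.09 CPM (SD, n = 3), and JAKMIP2-AS1 and LINC00648 had log2 fold changes of 3.93 and 3.45. LINC00520 (-3.36), ENSG00000280614 (-2.53) and MIR99AHG (-1.79) were the largest falls among those with at least 5 CPM in either group and no overlap. Strand was not used in counting, so the reads of an antisense RNA such as JAKMIP2-AS1 cannot be told apart from those of genes it overlaps. No gene had 0 counts in all WT libraries and at least 30 in each clone 1.1 library, and 3 long noncoding RNAs met the reverse condition. LINC02506 was at least 15.9-fold lower in clone 1.1, LINC02568 at least 12.2-fold and ZNF542P at least 10.8-fold lower, each taken against a floor of 3 counts per library. With a minimum of 10 counts the numbers were 2 gained and 8 lost. These were chosen after their values were seen: PRICKLE1, a planar polarity gene, and TNFSF10, which encodes the death ligand TRAIL, were gained, and the 4 protein-coding losses were PLA2R1, ZNF718, the metalloproteinase inhibitor TIMP3 and MTMR8. A further loss, the noncoding ENSG00000228708 (chromosome 21, 18477358 to 18486599), overlaps TMPRSS15, and reads of the pair cannot be told apart.

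Genes of DNA replication fell together. Of 43 tested, 25 were called down (58.1%, against 7.49% of all genes) and 0 up, with a median log2 fold change of -0.61. The licensing factors ORC1 and CDT1, which load the replicative helicase, had log2 fold changes of -0.96 and -0.89. CDT1 was at 71.6, 84.7 and 76.0 CPM in WT and at 45.1, 39.3 and 41.1 CPM in clone 1.1. GINS1, GINS2, GINS3 and GINS4, the 4 subunits of the GINS complex of that helicase, were all called down (-0.80 to -0.97). RRM2, a subunit of ribonucleotide reductase, fell from 432 ± 7.13 to 248 ± 6.69 CPM (SD, n = 3), and TYMS, thymidylate synthase, fell by 0.89 on the log2 scale. E2F1, the transcription factor that induces many of these genes, measured 142, 153 and 132 CPM in WT and 83.0, 80.6 and 73.6 CPM in clone 1.1, a log2 fold change of -0.85 (SE 0.06, adjusted p = 3.73e-15). PCNA, the sliding clamp, at -0.51, stayed inside the threshold. All 43 members had a negative log2 fold change.

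E2F factors recognise TTTCCCGC and TTTGGCGC. In RefSeq promoter windows (GRCh38.p14, 250 bases before to 50 after the gene start), 10 of the 22 called replication genes with a listed promoter held one of these 8-letter sequences on either strand. So did 7 of 16 members that were not called, and 3.77% of the 10310 promoters of tested genes. The match is a description and no evidence of binding. The 200 bases before the start of the 2 called genes with the largest falls among those with a match in that stretch are shown, with the E2F letters in capitals (CDT1 at chr16:88803589-88803788 and TYMS at chr18:657453-657652, both on the plus strand).
CDT1: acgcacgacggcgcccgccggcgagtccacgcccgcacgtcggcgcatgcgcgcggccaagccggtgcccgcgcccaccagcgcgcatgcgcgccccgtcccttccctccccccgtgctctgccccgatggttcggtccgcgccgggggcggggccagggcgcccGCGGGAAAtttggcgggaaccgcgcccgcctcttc
TYMS: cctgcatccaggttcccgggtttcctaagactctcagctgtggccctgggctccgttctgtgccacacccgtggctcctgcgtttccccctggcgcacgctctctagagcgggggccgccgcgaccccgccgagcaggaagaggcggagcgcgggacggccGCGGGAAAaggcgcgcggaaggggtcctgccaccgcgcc

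Some mitotic genes fell too. Of 35 tested, 13 were called down, against 7.49% of all genes, 0 were called up and 22 did not pass, and the median was -0.52. CDC20, an activator of the anaphase-promoting complex, fell from 174, 185 and 174 CPM to 104, 99.0 and 93.5 CPM (log2 fold change -0.85). Aurora kinase B (AURKB, -0.76), cyclin A2 (CCNA2, -0.69), cyclin B1 (CCNB1, -0.64) and survivin (BIRC5, -0.62) were called, whereas MKI67, the gene of the proliferation marker Ki-67, was at 427 ± 28.6 CPM in WT and 376 ± 23.8 in clone 1.1 (SD, n = 3; log2 fold change -0.19). CDC20 and CENPM, and ASF1B in the replication list, belong to genes that the study itself singled out in TWIST1 knockout cells, so they are no independent evidence. Of 15 cell cycle inhibitors, cyclins D and their partners, 1 was called down (6.67%, against 7.49% of all genes) and 3 up (20%, against 12%). The 3 were the inhibitors CDKN1C (p57, 1.28), CDKN2B (p15, 0.83) and CDKN2A (p16 and ARF, 0.76). CDKN1C was at 12.9, 16.4 and 10.9 CPM in WT and at 30.2, 33.6 and 34.0 CPM in clone 1.1. The p53 target CDKN1A (p21) had a log2 fold change of 0.11, and of 25 p53 targets 3 were called up, the same 12% as over all genes, and 0 down, with a median of 0.06. Without WT replicate C only 1 p53 target was called up. Bulk RNA does not tell fewer cycling cells from less of these transcripts in each cell.

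The cholesterol pathway was the other coherent fall. Of 31 genes of cholesterol and fatty acid synthesis tested, 17 were called down (54.8%, against 7.49% of all genes) and 0 up. The median log2 fold change was -0.61. All 17 belong to the mevalonate and sterol branch. They include the early enzyme HMGCS1, the squalene enzymes FDFT1 and SQLE, and the late enzymes CYP51A1, NSDHL, EBP and DHCR7. HMGCS1 measured 219, 215 and 217 CPM in WT and 119, 115 and 119 CPM in clone 1.1 (log2 fold change -0.88, SE 0.04, adjusted p = 2.39e-20), and CYP51A1, the lanosterol demethylase, had the largest fall (-1.11). INSIG1, a sterol-sensing regulator of the pathway, went from 544 ± 11.9 to 310 ± 11.6 CPM (SD, n = 3). The fatty acid enzymes FASN (-0.17), ACACA (0.15) and SCD (-0.31) and the regulator SREBF2 (0.03) were not called. The 9-letter form of the sterol regulatory element, TCACNCCAC, lay in 0 of the 13 promoters listed for the called genes and in 1.06% of the promoters of tested genes, so this window holds no match to print.

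**Figure D2:**
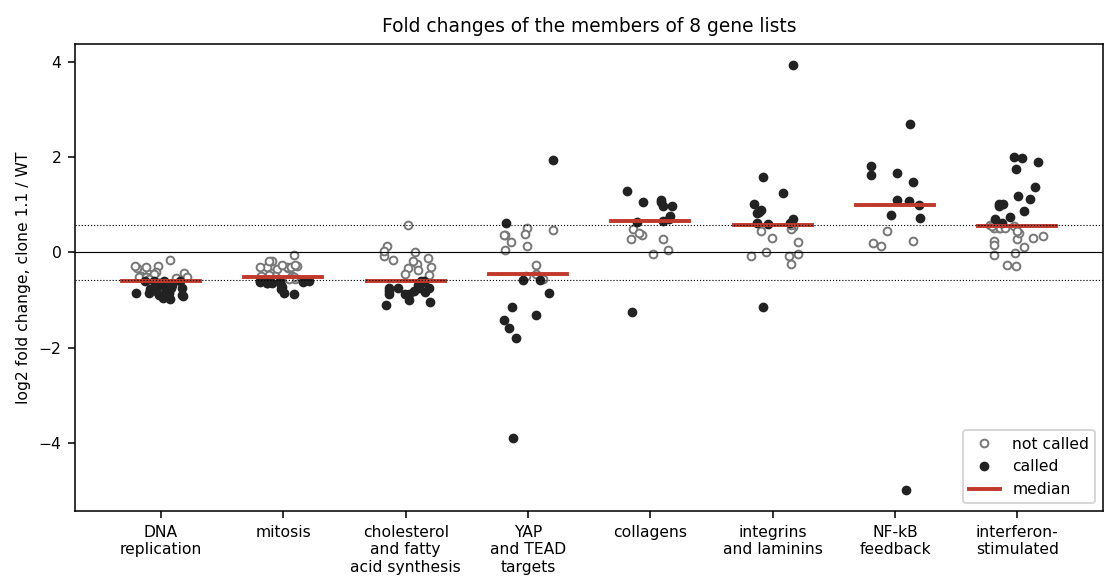
Log2 fold change, clone 1.1 over WT, of every tested member of 8 gene lists; filled points passed the test, open points did not, red bars are medians and dotted lines mark 0.58 and -0.58. DNA replication (median -0.61), mitosis (-0.52) and cholesterol synthesis (-0.61) lie below 0 with few exceptions, and NF-kB feedback genes (0.99) and interferon-stimulated genes (0.55) above it.

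Most genes of a list of NF-kB targets and feedback genes rose. NF-kB is the transcription factor of inflammatory signalling, and the list holds its subunits RELB and NFKB2 as well as inhibitors such as NFKBIA. All 15 genes of the list were tested, and 10 were called up (66.7%, against 12% of all genes) and 1 down. The median was 0.99. NFKBIA, which encodes the inhibitor IκBα, was at 40.04, 40.03 and 34.2 CPM in WT and at 75.2, 84.6 and 82.2 CPM in clone 1.1 (log2 fold change 1.08, SE 0.06, adjusted p = 2.07e-17). TNFAIP3, the ubiquitin-editing enzyme A20, rose from 22.7 ± 2.44 to 63.6 ± 3.34 CPM (SD, n = 3). The antiapoptotic gene BIRC3 (1.67), TRAF1 (1.81), TNFRSF9 (1.63), RELB (0.99) and NFKB2 (0.73) rose as well. The largest rise was that of the noncoding MIR3142HG (2.71), the host transcript of miR-146a, at 1.49, 1.83 and 2.03 CPM in WT and 11.9, 11.6 and 11.8 CPM in clone 1.1. TNFAIP3 and MIR3142HG are among the genes the study itself singled out in TWIST1 knockout cells. The 1 fall was TNFAIP2, at 10.7, 10.5 and 8.64 CPM in WT and 0.319, 0.235 and 0.368 CPM in clone 1.1.

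The κB consensus was searched as GGGNN followed by TTTCC or TTCCC, on both strands. It lay in 6 of the 9 listed promoters of the genes of this list that rose, in 1 of the 4 of its other tested members and in 4.56% of the promoters of tested genes. The 200 bases before the start of the 2 with the largest rises among those with a match in that stretch are shown with the matching letters in capitals (MIR3142HG at chr5:160468051-160468250 and BIRC3 at chr11:102317284-102317483, both on the plus strand). The starts are those of RefSeq. That of MIR3142HG lies inside the longer gene model of the counts (160438594 to 160487426), and the BIRC3 model of the counts begins at 102317450, within the stretch shown, so neither stretch is upstream of every annotated start.
MIR3142HG: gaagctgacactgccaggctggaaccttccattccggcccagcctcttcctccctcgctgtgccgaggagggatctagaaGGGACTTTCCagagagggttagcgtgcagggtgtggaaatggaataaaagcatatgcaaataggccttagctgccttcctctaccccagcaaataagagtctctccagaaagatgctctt
BIRC3: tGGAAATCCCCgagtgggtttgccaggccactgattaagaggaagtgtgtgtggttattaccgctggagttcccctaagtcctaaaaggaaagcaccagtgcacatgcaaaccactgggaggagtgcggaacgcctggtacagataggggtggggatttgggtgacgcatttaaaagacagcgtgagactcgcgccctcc

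Some cytokine, interferon-stimulated and antigen presentation genes rose, although most members of each list did not pass the test. Of 14 chemokine and cytokine genes tested, 5 were called up (35.7%, against 12% of all genes) and 0 down. CCL2, the monocyte attractant, was at 110, 98.9 and 94.3 CPM in WT and at 329, 378 and 369 CPM in clone 1.1. The others were the neutrophil attractant CXCL1 (log2 fold change 1.78), IL32 (1.67), IL1A (1.16) and IL1B (1.17). Without the filter on low genes 10 of this list were called up. Of 33 interferon-stimulated genes, 14 were called up (42.4%) and 0 down, with a median of 0.55. MX2, an antiviral GTPase, rose from 7.62, 8.79 and 7.83 CPM to 31.2, 33.7 and 31.2 CPM (log2 fold change 1.99), and IFIT2 (1.90) and the RNA sensor IFIH1 (1.76) followed. IFIT1, a relative of IFIT2, had a log2 fold change of -0.05, so the list did not move uniformly. Of 21 genes of MHC class I presentation, 5 were called up (23.8%, against 12% of all genes) and 0 down. B2M, the invariant chain of MHC class I, was at 654, 587 and 607 CPM in WT and at 1153, 1262 and 1237 CPM in clone 1.1, HLA-B rose by 1.16 on the log2 scale, and the immunoproteasome subunit PSMB10 by 1.26. Reads of the HLA genes can be shared between family members, and their values are uncertain to that extent.

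Matrix genes divided by class. Of 18 collagen genes tested, 10 were called up (55.6%, against 12% of all genes) and 1 down (5.56%, against 7.49%). The median was 0.66. COL4A1, of basement membranes, was at 155, 160 and 152 CPM in WT and at 412, 371 and 368 CPM in clone 1.1 (log2 fold change 1.30, SE 0.04, adjusted p = 4.99e-25). COL1A1, the main fibrillar collagen, rose from 610 ± 7.28 to 1207 ± 87.8 CPM (SD, n = 3), and COL18A1 (1.1), COL6A1 (1.06) and COL7A1 (1.06) rose as well. COL5A2 fell (-1.25). Of 23 integrin and laminin genes, 11 were called up (47.8%) and 1 down (4.35%). Besides ITGA11, the collagen receptor subunits ITGA1 (1.59) and ITGA2 (1.02) rose, as did ITGB3 (1.25) and ITGAV (0.86), which together form the vitronectin receptor, and the laminin chain LAMB3 fell (-1.14).

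Noncollagenous matrix glycoproteins went both ways, with 10 up (37%) and 11 down (40.7%) of 27 tested, against 12% and 7.49% of all genes. The large proteoglycan versican (VCAN) rose from 290 ± 11.5 to 770 ± 22.3 CPM (SD, n = 3), and IGFBP7 had a log2 fold change of 1.36. CCN3 rose (1.27), whereas its relatives CCN1 and CCN2 fell by 1.31 and 1.58. CCN2 stood at 321, 318 and 333 CPM in WT and at 112, 114 and 99.0 CPM in clone 1.1. The fibulins FBLN1 (-2.46), FBLN5 (-5.31) and EFEMP1 (-1.57), which organise elastic fibres, were all called down. SPP1, the secreted glycoprotein osteopontin and a ligand that the study also examined, fell from 46.7, 45.2 and 43.5 CPM to 17.8, 18.7 and 17.9 CPM (log2 fold change -1.31). Its receptor genes ITGAV, ITGB1, ITGB3 and ITGB5 were called up (0.61 to 1.25), and the receptor CD44 was not (0.31). Among matrix proteases and their inhibitors, 7 of 26 were called up (26.9%, against 12% of all genes) and 3 down (11.5%, against 7.49%). MMP10 had the largest rise (2.67), and the gelatinase MMP2 rose from 1209 ± 28.5 to 2058 ± 52.9 CPM (SD, n = 3).

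CCN1 and CCN2 are also textbook targets of YAP and TEAD, the effectors of the Hippo pathway. Of 23 such targets tested, 9 were called down (39.1%, against 7.49% of all genes) and 2 up (8.7%, against 12%). The median was -0.45. ANKRD1, a cardiac ankyrin repeat protein, fell from 3.57, 4.42 and 3.71 CPM to 0.426, 0.141 and 0.211 CPM (log2 fold change -3.91). IGFBP3 (-1.79), DLC1 (-1.42), F3, which encodes tissue factor (-1.15), and AXL (-0.86) fell too. The rises were TGFB2, a TGF-beta ligand (10.4 ± 1.36 to 40.2 ± 2.17 CPM, SD, n = 3), and RBMS3 (0.62, or 0.55 and no longer called without WT replicate B). The target AMOTL2 (-0.50) and the kinase gene LATS2 (-0.26) were not called. Some of these genes, among them CCN1, CCN2 and IGFBP3, also belong to the matrix list, so the counts are not independent.

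Single signalling ligands and receptors changed. In the TGF-beta and BMP family 8 of 44 genes were called up (18.2%) and 3 down (6.82%), shares near the 12% and 7.49% of all genes. BMP4 rose (1.29) and BMP2 fell (-1.63), and the antagonist follistatin (FST) fell (-2.15). None of the 11 receptors of this family passed the thresholds. BMP2 stood at 73.0, 71.2 and 65.1 CPM in WT and at 21.1, 23.4 and 22.8 CPM in clone 1.1. In WNT signalling, the ligand WNT5A rose from 312 ± 5.80 to 599 ± 6.63 CPM (SD, n = 3) and its receptor ROR1 from 0.213, 0.102 and 0.203 CPM to 2.29, 1.64 and 1.79 CPM. The coreceptor LRP5 (1.87) and the feedback inhibitor NKD1 (1.83) rose, and the secreted inhibitor DKK1 fell (-1.50). Of 21 WNT receptors and inhibitors tested, 4 were called up (19%) and 2 down (9.52%), with a median of 0.01. Of 11 WNT target and feedback genes tested, 3 were called up (27.3%) and 0 down. MYC (-0.37) and CCND1 (0.26), both classical WNT targets, were not called. Of 19 MAPK feedback genes 7 were called up (36.8%, against 12% of all genes) and 0 down, PHLDA1 by the most (1.03).

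Genes of axon guidance and neural adhesion rose in part. Of 36 semaphorin, plexin, slit, robo and related guidance genes tested, 17 were called up (47.2%) and 4 down (11.1%). The shares over all genes were 12% and 7.49%. The repulsive ligand SEMA3A rose from 119, 116 and 108 CPM to 259, 263 and 279 CPM, and its receptors NRP1 (0.98) and PLXNA3 (1.13) rose as well. SEMA6B had the largest rise (1.88) and PLXNA2 the largest fall (-1.48). Of 35 clustered protocadherins, neural adhesion genes that share exons within their cluster, 18 were called up (51.4%) and 3 down (8.57%). The median was 0.69. Counts of these genes can be assigned to more than 1 member, so single members are uncertain, and without WT replicate B only 1 was called down. HOX genes, which record position along the body axis, differed by chromosome cluster, a pattern chosen after the values were seen. Of the 23 tested, 6 were called up (26.1%) and 7 down (30.4%). Of 9 HOXB genes tested 6 were called up and 0 down, among them HOXB5 (1.22), HOXB9 (118 ± 8.65 to 233 ± 3.66 CPM, SD, n = 3) and HOXB13 (1.05). Of the HOXD genes all 4 tested were called down, with HOXD3 (-1.09) the lowest, and of 3 HOXA genes 2 were. The HOXA genes lie on the short arm of chromosome 7, like TWIST1. The part of the lower window medians given there was not tested. Of 7 HOXC genes tested 1 was called down and 0 up, with a median of 0.10.

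**Figure D3:**
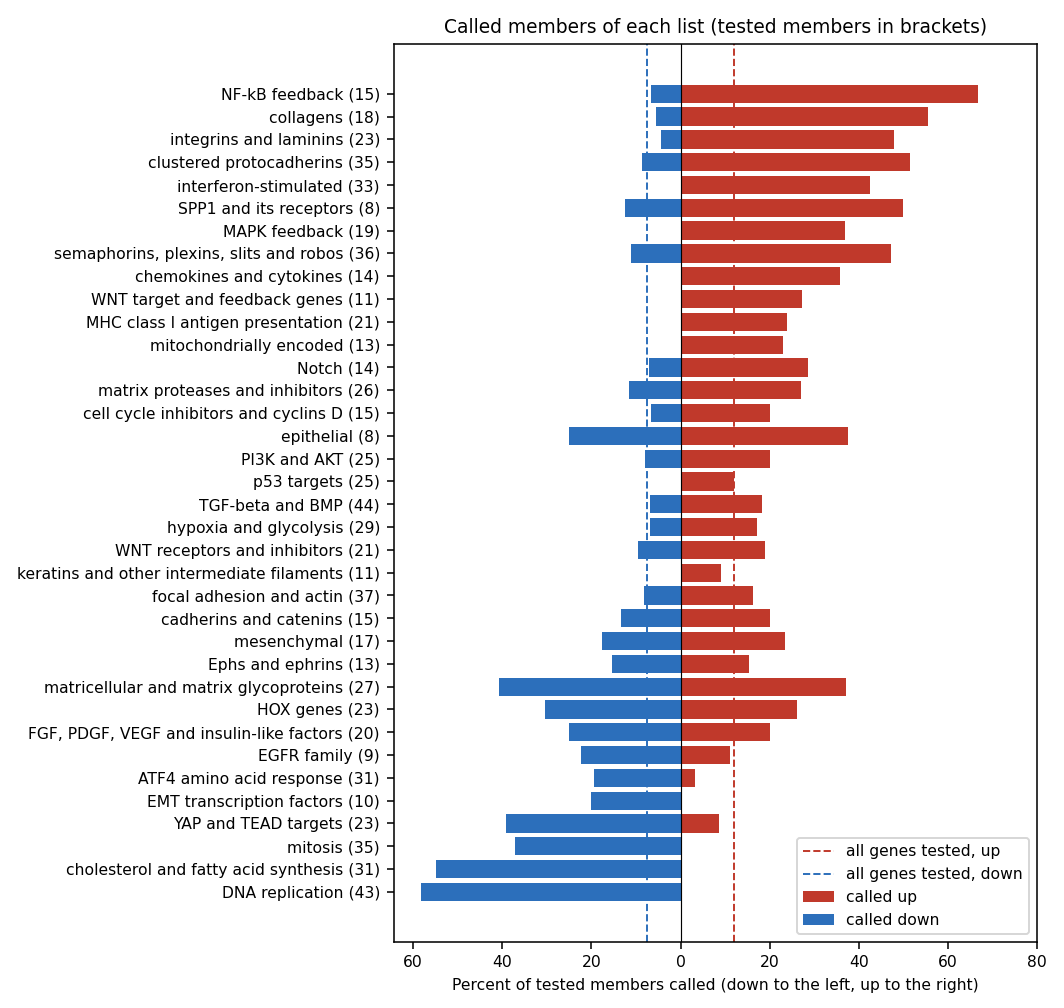
Share of the tested members of each gene list called up (red, to the right) or down (blue, to the left) in clone 1.1, with the number tested in brackets and the shares over all genes as dashed lines (12% up, 7.49% down). DNA replication, cholesterol synthesis and mitosis have 0 members called up, and NF-kB feedback, collagens and integrins have 1 called down each.

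Amino acid genes induced by ATF4, the factor of the integrated stress response, were lower in part. Of 31 tested, 6 were called down (19.4%, against 7.49% of all genes) and 1 up (3.23%, against 12%). The transporter SLC7A5 fell from 18, 20.7 and 15.8 CPM to 4.36, 4.70 and 5.21 CPM (log2 fold change -1.93), and the serine synthesis enzyme PSAT1 by 0.91. ATF4 itself was at 251 CPM in WT and 250 CPM in clone 1.1. Of 7 mesothelial markers the 3 tested, CALB2 (-1.97), LRRN4 (-1.74) and BNC1 (-0.71), were called down, and the summed level of all 7 was 43.3 to 47.6 CPM in WT and 21.8 to 24 CPM in clone 1.1. The defining mesothelial genes UPK3B and KRT5 were at or near 0 in both groups. The epithelial list gave 3 genes up (37.5%, against 12% of all genes) and 2 down (25%, against 7.49%) of 8 tested. JUP, the desmosomal linker DSP (1.15) and the mucin MUC1 (1.38) rose, and P-cadherin (CDH3) fell. The other fall, GRHL1 (-0.63), was lost without WT replicate B or C or clone 1.1 replicate A or B, with log2 fold changes of -0.47 to -0.60. CDH3 had 30 counts in all in WT and 2 in clone 1.1, which is 6.56% of the WT level with a 95% exact counting interval of 0.759 to 25.8%. At 0.517 CPM in WT and 0.0351 CPM in clone 1.1, CDH3 passed the level for testing only through the other clones. Its call against WT therefore counts as uncertain.

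The remaining lists are read against the shares over all genes, 12% up and 7.49% down. Of 10 fibroblast markers 6 were tested, with 4 called up (COL1A1, DCN, THY1 and PDGFRB) and the fibroblast activation protein gene FAP down, from 42.4 ± 2.57 to 20.7 ± 1.98 CPM (SD, n = 3). Their part in the results on matrix genes was not tested. Among Notch genes, the ligands JAG1 (0.76) and DLL1 (0.77) rose, whereas the receptors NOTCH1 (0.05) and NOTCH2 (0.12) were not called. Of 29 hypoxia and glycolysis genes 5 were called up (17.2%) and 2 down (6.9%), shares near those of all genes, with a median of -0.12. The lactate exporter SLC16A3 rose from 21.9 ± 1.69 to 63.9 ± 7.65 CPM and hexokinase 2 (HK2) fell from 45.5 ± 0.936 to 21.3 ± 1.33 CPM (SD, n = 3). Of 25 PI3K and AKT genes 5 were called up (20%) and 2 down (8%), among them the PI3K inhibitor PIK3IP1 (1.75), a gene the study picked, and the kinase SGK1 (-1.17). Focal adhesion and actin genes gave 6 up (16.2%) and 3 down (8.11%) of 37 tested, again near the shares of all genes. Of the genes the study singled out as TWIST1-bound and raised or lowered on loss of TWIST1, all 13 and all 14 were called in the stated direction in clone 1.1. The study chose them partly on TWIST1 knockout MDST8 cells, so they are no independent evidence.

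Clone 1.1 was next compared with the mean of clones 2.2, 3.2, 3.5 and 3.6, a test that leaves the WT libraries out of the contrast. In it 343 genes were higher in clone 1.1 (2.50%) and 253 lower (1.85%). The former number depended on the setting, at 199 genes called higher in clone 1.1 than in the other clones with limma on log2(RPM + 1) and 627 without a filter on low genes. Of the 343, 241 were also called up against WT, and of the 253, 166 were also called down. TMPRSS15 was again the largest difference. Its means in the other clones were 41.7, 23.7, 11.5 and 20.5 CPM, in the order given, so that every one of these clones kept the transcript that clone 1.1 lacked. JUP was higher in clone 1.1 than in 3 of the other clones, which had 0.377 to 0.949 CPM, but clone 3.5 reached 36.1 CPM, above the 22.4 of clone 1.1. The galectin gene LGALS9 was at 3.75 to 8.77 CPM in the other clones, against 17.1 in clone 1.1 and 0.483 in WT. No gene of the DNA replication or mitosis lists was called either way in this comparison.

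Among the protein-coding genes furthest above all the other clones, XYLT1, which starts the sugar chains of proteoglycans, was at 20.3 ± 1.66 CPM (SD, n = 3) in clone 1.1 against 0.45 to 10.1 in the other clones. SIGLEC14 and DIO2, a sialic acid receptor and the deiodinase that activates thyroid hormone, also belonged to these genes, as did IL31RA and TESPA1. TESPA1 was near the threshold against WT, and its log2 fold change of 0.72 came to 0.50, no longer called, without clone 1.1 replicate C. On the low side, netrin 1 (NTN1), a guidance cue, was at 3.46 ± 0.636 CPM in clone 1.1 and at 8.22 to 35.6 CPM in the other clones. The serine protease genes PRSS33 and PRSS22, neighbours on chromosome 16, were at 7.01 ± 0.761 and 2.46 ± 0.293 CPM, against 20.6 to 122 and 4.2 to 50.03 CPM. Neither was below WT, where they were at 1.65 and 2.17 CPM. Against WT, PRSS33 was called up in clone 1.1 (log2 fold change 2.09) and PRSS22 was not called (0.19).

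**Figure D4:**
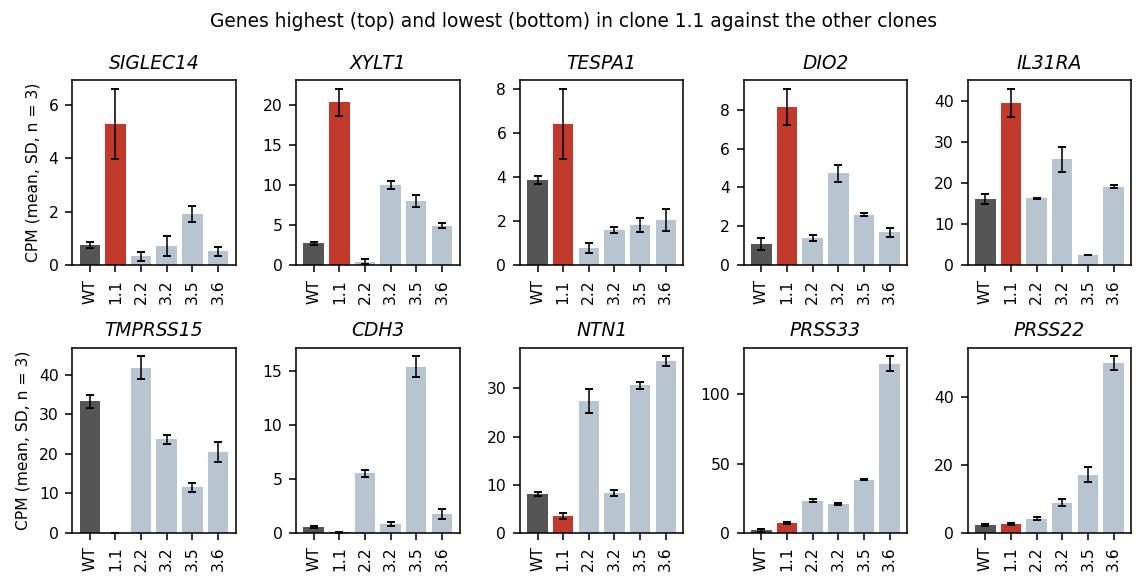
Mean CPM (bars; error bars are the SD, n = 3 libraries each) of 5 of the 6 genes furthest above and 5 of the 6 furthest below the other clones in clone 1.1 (red), with WT in dark grey and the other clones in light grey-blue; each axis starts at 0. TMPRSS15 has 33.3 CPM in WT and between 11.5 and 41.7 CPM in every clone but 1.1.

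The ends of a pair of chromosomes differed in clone 1.1 as blocks. They were found by reading medians along the chromosomes in windows of 10 Mb. They were delimited after the values were seen, so their values are a description. The highest median against the other clones, 0.29, was on chromosome 4 (120 to 130 Mb), above the 0.22 of the X window (150 to 160 Mb). In that chromosome 4 window the median against WT was -0.11 in clone 1.1. It was -0.53, -0.06, -0.63 and -0.21 in clones 2.2, 3.2, 3.5 and 3.6. From PTGR3 to PARD6G at the end of the long arm of chromosome 18 (75195113 to 80247514 of hg38), all 16 tested genes were lower in clone 1.1 than in the other clones, with a median log2 difference of -0.63. Of the 16, 9 were called lower, against 1.85% of all genes. The 16 tested genes just before them had a median of -0.03. Summed over the 16 genes, the level was 320 to 337 CPM in the clone 1.1 libraries, 636 to 667 in WT and 475 to 535 CPM in the libraries of the other clones. Against WT 12 of them were called down in clone 1.1, with a median log2 fold change of -1.0, whereas the medians of the other clones were -0.26 to -0.44. TXNL4A, a spliceosome component, was at 93.5 ± 4.06 CPM in WT and 46.5 ± 2.83 CPM in clone 1.1 (SD, n = 3), and the transcription factor gene NFATC1 at 25.3 ± 2.03 and 14.7 ± 0.882 CPM. MBP, the myelin basic protein gene in the same stretch, lay close to WT (-0.13) and below the other clones (-0.63). The 16 tested genes just before the stretch were lower than WT too. Of these, 7 were called down in clone 1.1, with a median of -0.34 against WT, and the medians of the other clones were -0.28 to -0.49.

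The end of the long arm of the X chromosome moved the other way. From IRAK1 to VAMP7 (154010506 to 155943769 of hg38), 30 of 31 tested genes were higher in clone 1.1 than in the other clones, with a median log2 difference of 0.55, and 11 were called higher, against 2.50% of all genes. The exception, IKBKGP1, is a pseudogene copy of IKBKG whose reads may be shared. The 31 tested genes just before IRAK1 had a median of -0.09. Against WT the median over the stretch was 0.46 in clone 1.1, and -0.06 to -0.13 in the other clones. RPL10, a protein of the large ribosomal subunit, differed from the other clones by 0.57 and from WT by 0.30. FLNA and PLXNA3, reported above with the actin and guidance genes, lie in this stretch. IRAK1 itself differed from the other clones by 0.75 and from WT by 0.17. No measurement of DNA in clone 1.1 was analysed here, and the part of gene dosage in either stretch was not tested. Chromosomes 14 and 18 as wholes had median log2 fold changes of -0.23 and -0.31 against WT, and these were shared by the other clones, at -0.19 to -0.24 and -0.25 to -0.33, all set against the same 3 WT libraries.

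**Figure D5:**
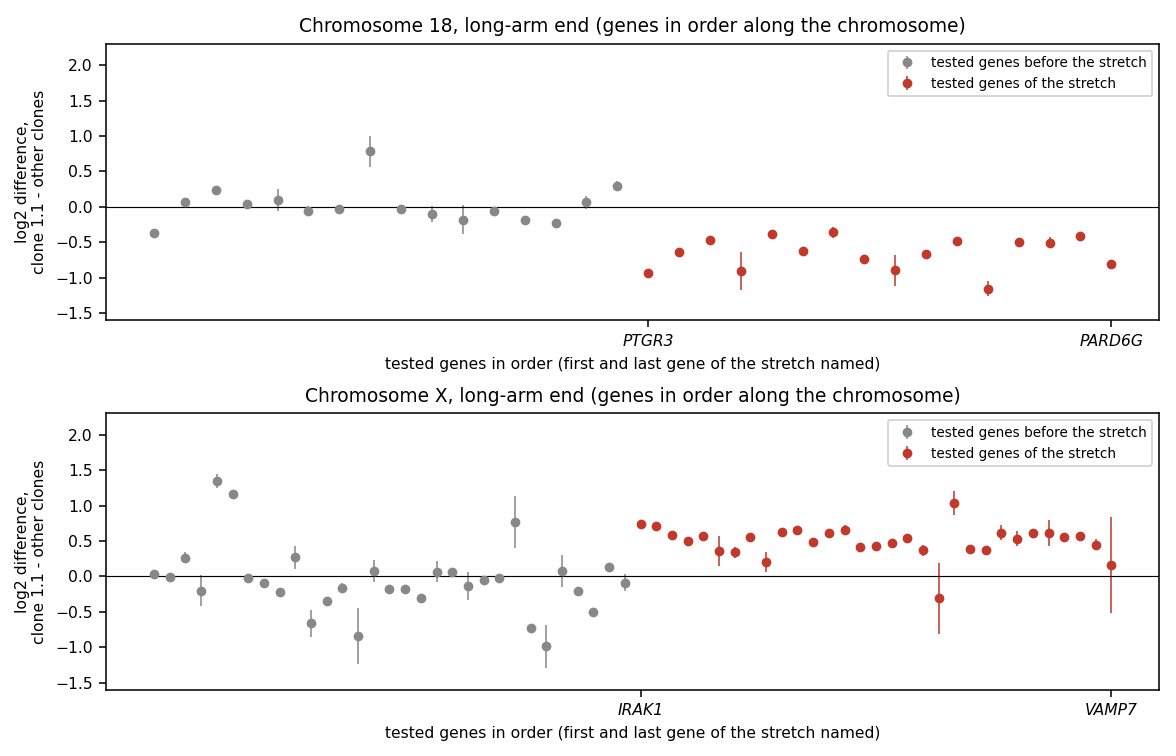
Log2 difference between clone 1.1 and the mean of the other 4 clones (points; bars are standard errors) for tested genes in order along the ends of the long arms of chromosomes 18 (top) and X (bottom), with the described stretches in red and an equal number of preceding genes in grey. The red points lie around -0.63 on chromosome 18 and around 0.55 on the X chromosome, and the grey ones scatter about medians of -0.03 and -0.09.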

How the data were processed

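The authors trimmed reads with Trim Galore 0.6.6, mapped them to hg38 with HISAT2 2.1.0 and ran featureCounts 2.0.0 on GENCODE annotation without strand. They deposited raw counts of 62703 genes, 1 column per library. No column was left unmatched to a sample (0).

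A gene was tested if the geometric mean of its RPM, offset by 1, was at least 1 in the 18 MDST8 libraries. Counts were normalized by TMM and fitted in 1 model by edgeR 4.0.16 (quasi-likelihood), because the deposited values are counts. The study's own choice, limma on log2 values, was an alternative. In simulated counts with 200 changed genes, 96% of 2-fold and 100% of 4-fold changes were called for clone 1.1 against WT (13706 genes). Members and lists were chosen with earlier results of these data known. Named genes are TWIST1 and SPON2, the 12 largest changes each way with at least 5 CPM in a group and no overlap, the 6 largest CPM changes each way, 3 noncoding genes each way, and up to 6 called members per list with its defining members. Added to these are 6 genes each way against the other clones, also with at least 5 CPM and no overlap. Some genes that this rule names are not reported here, though they stay in all fits and counts. Exact permutation tests used log2(CPM + 0.5). Replicates differed by more than counting noise (chi-square per gene 2.59 to 4.26), so each counts as its own library. Alternatives were RLE factors, DESeq2 1.42.0, limma 3.58.1 (voom, log2(count + 1), log2(RPM + 1)), other filters on low counts, separate fits, a block for the replicate letter, and leaving out each library.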

Additional observations from a re-analysis of the deposited data

Results flagged for a closer look

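The contrast of clone 1.1 with the other knockout clones was tested directly for all genes tested (edgeR's quasi-likelihood test, Benjamini-Hochberg adjusted). It called 343 genes higher and 253 lower in clone 1.1. The 10 protein-coding genes listed here are among the largest log2 differences each way. Their listing required at least 5 CPM in clone 1.1 or in the mean of the other clones, and no overlap of libraries. The log2 difference, clone 1.1 minus the mean of the other 4 clones, was 2.90 for SIGLEC14, 2.46 for XYLT1, 2.12 for TESPA1, 1.81 for DIO2 and 1.73 for IL31RA. On the low side it was -9.88 for TMPRSS15, -6.37 for CDH3, -2.69 for NTN1, -2.47 for PRSS33 and -2.44 for PRSS22. All 3 clone 1.1 libraries lay beyond all 12 libraries of the other clones in each of these genes, as the rule for listing them required. TMPRSS15 and CDH3 had 1 and 2 counts in clone 1.1, so these 2 fitted values depend on the prior count and are no bounds. CDH3, at 0.517 CPM in WT, was tested and listed only through the other clones. Its means there were 5.5, 0.802, 15.4 and 1.73 CPM in clones 2.2, 3.2, 3.5 and 3.6. Groups of 3 libraries were too small for a test of single outlying libraries.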

How the results depend on the processing

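Over all alternatives 1240 to 2098 genes were called up in clone 1.1 and 911 to 1435 down, each within 1.5 times the reported count, and no gene was called in the opposite direction in any of them. The median of all genes moved between -0.04 and 0.02. Leaving out 1 library gave 1571 to 1710 up and 974 to 1047 down, and left 332 to 353 genes called higher in clone 1.1 than in the other clones and 238 to 261 genes called lower in clone 1.1 than in the other clones. The former number, 343, came to 199 with limma on log2(RPM + 1), 627 without a filter and 528 with filterByExpr, and the filter settings test more genes. At a minimum of 10 counts 2 genes were gained and 8 lost, and at 100 counts 0 were lost and 0 gained. The replicate letters did not pair the samples, with correlations of same-letter deviations of -0.10, 0.01 and 0.05. A block on the letter gave 1639 up and 1026 down, with 2660 of the 2670 calls shared, and changed no call of a named gene. Among 201 tested genes named here none reversed, and 9 changed their call in some alternative. Without a filter, or with filterByExpr, 5 mesothelial markers were called down. Genes under about 1 RPM were tested only in the settings with other filters.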
